A study of Mus musculus with 11 samples.

Results

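Alveolar type 1 (AT1) epithelial cells were examined in single-cell 3′ RNA libraries (10x Genomics) of dissociated mouse lung. Cells were chosen on their own counts of unique molecular identifiers (UMIs, each standing for 1 captured RNA molecule). A barcode had to hold 1000 to 30000 UMIs with at most 14% from mitochondrial genes, and at least 4 UMIs of Ager and Rtkn2 together. It could hold at most 1 UMI of the alveolar type 2 (AT2) genes Slc34a2 and Lamp3, and none of Ptprc, Cldn5 or Cdh5, which mark leukocytes and endothelium. These conditions selected 299 of the 69267 barcodes that passed the UMI and mitochondrial limits (0.432%), out of 81983 barcodes in the deposited matrices.

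The 11 libraries came from lungs of 4 genotypes. The WT library was wild type (+/+), the 3 p21Het libraries were p21 heterozygotes (+/-), the 5 p21mTert libraries were p21 mTert (+/mTert) and the 2 p21mTertCD libraries were p21 mTertCD (+/mTertCD). p21 is the protein of Cdkn1a, which stops the cell cycle, and mTert is the mouse telomerase reverse transcriptase gene Tert, which the series title describes as induced in p21-positive cells. All 3 altered genotypes keep 1 unmodified p21 allele, the labels do not spell out CD, and the alleles are not described as restricted to any cell type. Ages were given as 18 months, except 19 for p21Het replicate 1 and 20 for p21mTert replicate 1, although the names of these libraries also say 18. An earlier deposit held WT, p21Het replicate 1 and p21mTert replicate 1, and a later one held the other 8 libraries. Nothing in the labels says that libraries of a genotype came from separate animals, so p-values measure only the spread between these libraries.

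AT1 cells are very thin, wide cells that cover most of the alveolar surface. They share a fused basement membrane with the capillary below, and oxygen and carbon dioxide cross there. They arise during development and after injury from progenitors that include AT2 cells, the surfactant-making cells of the alveolus, and they send growth factors such as VEGF-A to the endothelium. Being fragile and flat, they are commonly under-represented in enzyme-dissociated lung.

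In replicate order, the p21mTert libraries held 5, 63, 32, 58 and 26 AT1 cells, the p21Het libraries 10, 45 and 13 and the p21mTertCD libraries 16 and 23, with 8 in the WT library. The median AT1 cell had 5031 UMIs of 1614 genes, and all AT1 cells together had 1994258 UMIs, from 14332 in p21mTert replicate 1 to 400268 in p21mTert replicate 4. Whole libraries had 42038434 to 85988955 UMIs. No AT1 barcode was selected in more than 1 library, and 4 of them also occurred among another library's barcodes, against 961 barcodes that occurred in more than 1 library overall. Some AT1 marker RNA was seen in other cells, and whether it was free RNA was not tested. Among 16319 B cells, defined by at least 2 UMIs of Cd79a, 3.52% held a UMI of Ager and 15.1% one of Hopx. None passed the AT1 selection, but its rule on Ptprc shuts out leukocytes, so this is no test of the selection.

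The label held for most of the cells. Hopx and Aqp5, the AT1 markers that the selection did not use, had a UMI in 94.3% and 91.3% of the cells. After each cell had been thinned to 1000 UMIs, Hopx was still seen in 88.6%, against an expected 3.51% of B cells at that depth. The 24 further AT1 genes that were listed took 3.19% of UMIs in the selected cells, 0.138% in AT2 cells and 0.11% in all other filtered cells. AT2 cells were selected by the mirrored rule, with at least 4 UMIs of Slc34a2 and Lamp3 and at most 1 of Ager and Rtkn2, which gave 519 cells. Markers of other cell types were scarce with 3 exceptions: genes of club cells of the airway lining (5.57% of UMIs), surfactant and other AT2 genes (1.04%) and haemoglobins (1.01%). Endothelial genes took 0.00236% with Cldn5 and Cdh5 at 0 by selection, and of the mesothelial genes Wt1 and Lrrn4 were at 0 while Gpm6a stood at 243 counts per 1000000 UMIs (CPM).

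Club and AT2 genes were concentrated in few cells. In 31 of the 299 cells (10.4%, holding 18.4% of the AT1 UMIs), UMIs of another cell type's marker list, haemoglobins left out, equalled or exceeded those of the 28 AT1 genes. The list was that of club cells in 16, of AT2 cells in 14 and of fibroblasts in 1. In the 31 mixed cells AT1 genes made up a median of 0.305% of UMIs (0.128% to 5.21%), against 5.99% (0.414% to 12.4%) in the other 268. Hopx was seen in 16 of the 31 (51.6%) and in 266 of the 268 (99.3%). Scgb1a1, the main secreted protein of club cells, took a median of 46.3% of UMIs in the 16 cells with club genes and 0.18% in the 268, and the mixed cells had a median of 10055 UMIs against 4770. They were unevenly spread, with 7 and 1 in p21Het replicates 2 and 3, 3, 2, 6 and 5 in p21mTert replicates 2 to 5, 2 and 5 in the p21mTertCD replicates, and none in WT and the first p21Het and p21mTert replicates. Some values are therefore also given without them. The split was made after the values were seen and carries no test. Of the 268 cells, 6 held as many haemoglobin UMIs as AT1 UMIs or more, 4 of them in p21Het replicate 2 and 1 each in p21mTert replicates 2 and 3, and these 6 stayed among the unmixed cells. No list covered smooth muscle cells, so such cells could not be marked as mixed by genes of their own. Unmixed cells of 8461 and 7071 UMIs in p21Het replicate 2 had AT1 shares of 0.414% and 0.495%. Values without mixed cells may therefore still hold other cell types.

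**Figure D1:**
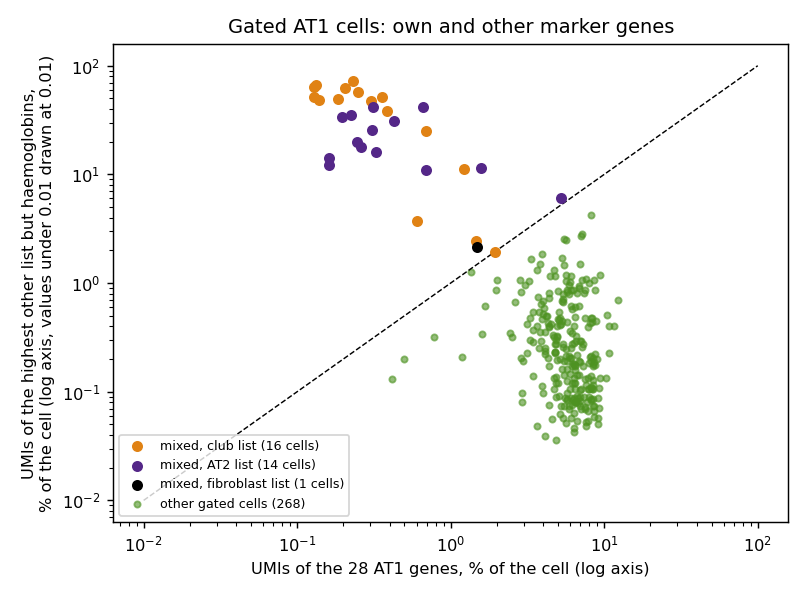
Each point is 1 of the 299 selected cells, with the share of its UMIs in the 28 AT1 genes on the horizontal axis and the share in the highest of the other cell types' lists, haemoglobins left out, on the vertical axis, in percent on log scales. The 268 unmixed cells lie at the right with a median AT1 share of 5.99%, and the 31 mixed cells lie on or above the dashed line of equal shares, most of them at the upper left, with a median of 0.305%.

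At the edge of the selection, markers that it did not use were seen in fewer cells. Of the 13 cells with exactly 4 UMIs of Ager and Rtkn2, 53.8% had a UMI of Hopx and 53.8% one of Aqp5. Of the 23 cells with 3 such UMIs, just outside the selection, 26.1% had one of Hopx and 39.1% one of Aqp5. The 268 unmixed cells had a median of 53 Ager and Rtkn2 UMIs, and the mixed cells a median of 6.

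The genes that set AT1 cells apart were first described by their level over all other filtered cells. These levels are descriptions with no test, because the cells were selected on expression. AT1 cells held 14670 genes with at least 1 UMI, 2523 genes were seen in at least 25% of the cells, and 179 of these were over 10-fold higher than in other cells. Folds are ratios of pooled CPM with 1 added to each. Ager was at 10400 CPM in AT1 cells, 116 in AT2 cells and 106 in other cells, and Rtkn2 at 1330, 0.953 and 2.07. Both were used by the selection.

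The 15 genes with the highest fold, leaving out those of the selection, ran from 278-fold to 75-fold. Igfbp2, a binding protein for insulin-like growth factors that marks mature AT1 cells, led at 2700 CPM in AT1 cells against 3.81 in AT2 cells and 8.73 in other cells. Col4a3 (1090 CPM, 216-fold) and Col4a4 (1260 CPM, 123-fold) encode collagen IV chains that assemble together, and Lama3 (367 CPM, 138-fold) encodes a laminin chain. Scnn1g, a subunit of the epithelial sodium channel that clears fluid from the alveolus, stood at 545 CPM, 203-fold above other cells. Akap5, an anchor for protein kinase A, was at 1090 CPM (200-fold), and Itgb6, an integrin chain that activates latent TGF-β, at 384 CPM (133-fold).

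The rest of this group were secreted or surface proteins and 2 with other roles. Bdnf, a neurotrophin, was at 310 CPM, Sema3a, a repulsive guidance cue, at 301 and Ndnf, a secreted neurotrophic factor, at 1190. Spock2, a matrix proteoglycan, was at 938 CPM, Flrt3, an adhesion protein, at 341, and the Wnt ligand gene Wnt10b at 97.8. Scel, a gene of the cornified envelope of squamous cells, was at 122 CPM, and Abca5, a lipid transporter, at 387. Sema3a, Scel and Wnt10b had no UMI in AT2 cells.

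**Figure D2:**
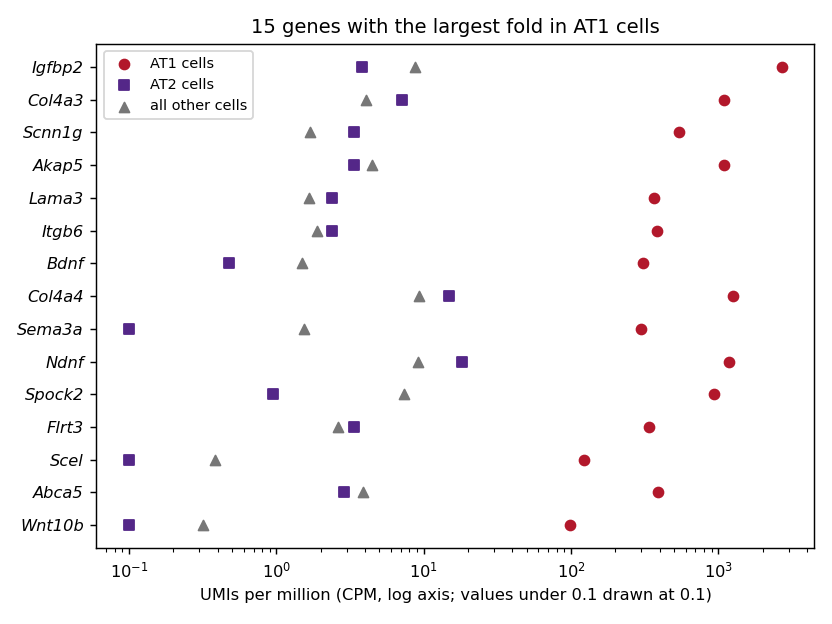
Pooled levels in CPM (log axis) of the 15 leading genes in AT1 cells, AT2 cells and all other filtered cells. AT1 levels lie between 97.8 CPM for Wnt10b and 2700 CPM for Igfbp2, with AT2 and other cells lower for each of the 15.

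Col4a3 and Col4a4, both among the leading genes, lie head to head on chromosome 1. In the GENCODE M21 annotation of GRCm38, Col4a3 spans chr1:82586921-82722059 on the plus strand and Col4a4 spans chr1:82448423-82586849 on the minus strand, so their starts face each other across a short shared region. The RefSeq window from 250 bases before to 50 bases after the Col4a4 start (GRCm38.p6, chr1:82586800-82587099, minus strand) therefore reaches into Col4a3. It is printed 5′ to 3′ on the Col4a4 strand because 1 stretch of DNA lies upstream of 2 genes that stood out together, with capitals marking the 179 bases inside the annotated Col4a3 gene.
Col4a4: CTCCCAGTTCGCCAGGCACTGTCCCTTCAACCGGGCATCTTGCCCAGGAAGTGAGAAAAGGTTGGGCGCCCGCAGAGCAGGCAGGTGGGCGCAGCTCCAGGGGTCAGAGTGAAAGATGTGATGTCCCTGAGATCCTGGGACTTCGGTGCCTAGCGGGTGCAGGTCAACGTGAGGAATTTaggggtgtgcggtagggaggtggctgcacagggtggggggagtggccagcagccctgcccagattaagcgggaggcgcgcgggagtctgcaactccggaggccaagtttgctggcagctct

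The promoter windows of the leading genes and the 4 markers were searched on both strands for GGAATG, a core of sites for TEAD factors, and CACTTGA, a core of sites for NKX2-1. The YAP and TEAD pathway and NKX2-1, the main lung epithelial transcription factor, are both known regulators of AT1 cells. RefSeq windows were matched for 15 of these 19 genes, 24 windows in all. GGAATG was in 2 of the 24 windows, both of Bdnf, against 14.7% of all 32851 windows of this length. CACTTGA was in 1, that of Hopx, against 3.06% of all windows. The Hopx window (GRCm38.p6, chr5:77095218-77095517, minus strand) is shown as the only 1 of the 24 with the NKX2-1 letters, in capitals, since Hopx is the marker seen most widely outside the selection genes. A match describes letters only.
Hopx: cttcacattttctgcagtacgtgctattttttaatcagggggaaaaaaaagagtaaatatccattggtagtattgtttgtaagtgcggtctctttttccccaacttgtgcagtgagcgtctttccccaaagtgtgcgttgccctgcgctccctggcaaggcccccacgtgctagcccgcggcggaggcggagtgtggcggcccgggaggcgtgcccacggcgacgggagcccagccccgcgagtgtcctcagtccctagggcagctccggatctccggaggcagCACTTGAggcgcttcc

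Among the 28 AT1 genes, 24 were over 10-fold above other cells, and the lowest was Npnt, encoding a basement membrane ligand of integrins, at 7.01-fold. Hopx, an atypical homeodomain protein, stood at 6820 CPM (59.4-fold) and Aqp5, the apical water channel, at 1810 CPM (35.7-fold). Of the 4 markers, Aqp5 had the highest level in AT2 cells, at 252 CPM. Pdpn, the membrane glycoprotein podoplanin, was at 582 CPM in AT1 cells and 4.77 in AT2 cells. Emp2 (3340 CPM), a membrane protein of caveolin-rich domains, and Clic5 (2300 CPM), a chloride channel family member tied to the cytoskeleton were also abundant.

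The 18 genes listed as signals to neighbouring cells took 0.6% of AT1 UMIs, 0.0276% in AT2 cells and 0.0318% in other cells. Vegfa, the ligand that maintains alveolar capillaries, was at 3350 CPM against 62.9 in AT2 cells, and Sema3e, a ligand of the endothelial receptor plexin D1, at 692 CPM. Pdgfa, which acts on alveolar fibroblasts, was at 520 CPM, and Hbegf, a ligand of the EGF receptor, at 324. Ihh had no UMI.

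The barrier genes were shared more widely. Junction genes took 0.472% of AT1 UMIs and 0.174% of AT2 UMIs, with Cldn18, the main claudin of the alveolar epithelium, at 2120 and 419 CPM, and Cgn, a tight junction scaffold, at 198 and 21.4. Ctnnb1, which encodes β-catenin, was no higher in AT1 cells, at 198 CPM against 293 in AT2 cells. In the water and ion transport list, Scnn1a and Scnn1b, the other sodium channel subunits, were at 743 and 375 CPM in AT1 cells and 67.2 and 11.9 in AT2 cells. Atp1b1, which encodes a β subunit of the sodium pump, went the other way at 122 CPM against 697, so the transport genes did not share 1 pattern.

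Genes of caveolae, the flask-shaped membrane pits that AT1 cells have in number, took 0.342% of AT1 UMIs and 0.0118% of AT2 UMIs. Cavin2 was at 1320 CPM and Cav1 at 808. Of the 18 basement membrane genes, which took 0.623% of AT1 UMIs and 0.0379% of AT2 UMIs, Hspg2 (perlecan, 292 CPM) and Agrn (agrin, 387 CPM) were at least 33.2-fold above other cells. Col4a1 and Col4a2, the collagen IV chains found in most basement membranes, were at 671 and 659 CPM and less particular in level, at 8.96-fold and 16.9-fold.

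YAP and TEAD genes took 0.256% of AT1 UMIs and 0.0377% of AT2 UMIs, with the transcription factor gene Tead1 at 610 CPM against 31.9, and the targets Cyr61 and Ctgf at 391 and 375 CPM. Nkx2-1 was at 381 CPM in AT1 cells and 196 in AT2 cells, and Sox9, a factor of the embryonic lung tip, had no UMI. Genes of the Krt8-high transitional state between AT2 and AT1 cells took 0.438% of UMIs, and 0.424% in the unmixed cells, with Krt8 at 554 CPM, Krt19 at 511 and Krt7 at 1100. p53 targets took 0.0996%, close to the 0.0816% of AT2 cells and below the 0.15% of other cells. Of the genes around Ager, which encodes the receptor RAGE, the ligand gene S100a6 was at 3380 CPM and S100a9 ran from 6.58 to 209 CPM by library.

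Individual AT1 cells varied around these levels. Over the 268 unmixed cells, Ager had a median of 115 UMIs per 10000 with quartiles of 74.7 and 162, Hopx a median of 74.2 and Vegfa one of 32.9. Igfbp2 had a median of 23.4 per 10000, and 33 of the 268 cells had none. When cells were thinned to 1000 UMIs, 205 unmixed cells had an Igfbp2 UMI and 63 had none, against an expected 0.15% of B cells at that depth. Per 1000 UMIs, cells with Igfbp2 had a mean of 13.4 UMIs of Ager against 8.35 without, 9.36 of Hopx against 6.51, and 2.05 of Aqp5 against 1.08. Rtkn2 went the other way at 1.42 against 1.78. The SDs over cells were as large as 7.93 for Ager and overlap widely, and cells of 1 library share their source, so these means are a description.

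The share of AT1 cells with an Igfbp2 UMI at 1000 UMIs was next compared between genotypes. It was 70%, 46.7% and 92.3% in the p21Het libraries and 100%, 79.4%, 71.9%, 70.7% and 65.4% in those of p21mTert. The p21mTertCD libraries were at 56.2% and 73.9%, and WT at 87.5%. Without thinning these shares were 100% in WT, 64.4% to 92.3% in p21Het, 69.2% to 100% in p21mTert and 75% and 82.6% in p21mTertCD. The groups overlapped, and p21Het replicate 2, with 7 mixed cells, was the lowest library. Means were 77.5% ± 13.6 (SD, n = 5) in p21mTert, 69.7% ± 22.8 (n = 3) in p21Het and 65.1% ± 12.5 (n = 2) in p21mTertCD. Exact permutation tests (2-sided) gave p = 0.554 for p21mTert against p21Het (adjusted p = 0.831), 0.381 against p21mTertCD (0.831) and 0.9 for p21mTertCD against p21Het (0.9), adjusted by Benjamini-Hochberg over 9 tests of 3 measures. Leaving out p21Het replicate 2 turned the first difference from 7.8 to -3.69 percentage points. The difference of p21mTert from p21mTertCD was 3.55 without p21mTertCD replicate 1, 21.2 without p21mTertCD replicate 2 and 6.65 without mixed cells. Without mixed cells the first difference was 9.03, with p21Het replicate 2 at 52.6% and still the lowest library, and the difference of p21mTertCD from p21Het turned from -4.58 to 2.38.

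The next question was whether AT1 cells made up a different share of the lung cells recovered. Of filtered barcodes, AT1 cells were 0.161%, 0.528% and 0.222% in the p21Het libraries and 0.0804%, 0.837%, 0.507%, 0.926% and 0.551% in those of p21mTert. They were 0.244% and 0.411% in the p21mTertCD libraries and 0.146% in WT. The 4 later p21mTert libraries were at or near the top, and the earlier p21mTert library, with 5 cells, was the lowest of the 11. In the earlier deposit the 3 libraries lay between 0.0804% and 0.161%, under all 8 of the later deposit. Exact (Clopper-Pearson) 95% intervals, which here and below cover counting error only, ran from 0.0261% to 0.187% for p21mTert replicate 1 and from 0.704% to 1.2% for p21mTert replicate 4.

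The genotype means of this share were not separable from the spread between libraries. p21mTert had 0.58% ± 0.332 (SD, n = 5), p21Het 0.303% ± 0.197 (n = 3) and p21mTertCD 0.327% ± 0.118 (n = 2). The 2-sided exact permutation test gave p = 0.286 for p21mTert against p21Het, 0.429 against p21mTertCD and 0.9 for p21mTertCD against p21Het (adjusted p = 0.831, 0.831 and 0.9). The smallest p these designs allow is 0.0179, 0.0476 and 0.1, so the last cannot reach 0.05. Within the later deposit, p21mTert exceeded p21Het by 0.331 percentage points (exact permutation p = 0.2) and p21mTertCD by 0.378 (p = 0.133), where the smallest p that 4 against 2 libraries allow is 0.0667. Without mixed cells p21mTert exceeded p21Het by 0.255 over all libraries. The earlier deposit holds 1 library per genotype and gives no test.

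Related to AT2 cells, so that immune and endothelial yield drop out, AT1 cells were 27.6 per 100 AT1 and AT2 cells in WT and 17.5, 25.7 and 40.6 in p21Het. They were 9.43, 64.9, 49.2, 46.4 and 44.8 in p21mTert, and 23.5 and 39 in p21mTertCD. All 4 later p21mTert libraries were above all p21Het and p21mTertCD libraries, and p21mTert replicate 1 was below all of them. Means were 43 ± 20.4 (SD, n = 5) in p21mTert, 28 ± 11.7 (n = 3) in p21Het and 31.3 ± 10.9 (n = 2) in p21mTertCD, with exact permutation p = 0.286, 0.476 and 0.8 in the order of contrasts above (adjusted p = 0.831, 0.831 and 0.9).

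The size of this difference depended on single libraries. Without p21mTert replicate 1, the difference between p21mTert and p21Het was 23.4 with an exact permutation p = 0.0286, unadjusted. Within the later deposit it was 18.2 with an exact permutation p = 0.0667. Each is the smallest p its number of libraries allows, so the second cannot reach 0.05. With any other single library left out, the exact permutation p ran from 0.286 (p21Het replicate 3) to 0.524 (p21Het replicate 1). The AT2 selection left out AT2 cells carrying 2 or more UMIs of Ager or Rtkn2, which many deep AT2 cells hold: of 3217 barcodes with 4 or more Ager and Rtkn2 UMIs, 2823 had over 1 UMI of the AT2 genes. A wider AT2 selection lowered the ratio in every library, with p21mTert libraries at 1.92, 14.4, 7.9, 11.7 and 9.59 and p21Het libraries at 2.43, 7.19 and 8.67. The difference was then 3 per 100 (exact permutation p = 0.339), and 3.81 after each cell had been thinned to 2000 UMIs before selection (exact permutation p = 0.429). As a fold, the p21mTert mean was 1.54 times that of p21Het with the first AT2 selection, 1.49 times with the wider one and 1.42 times after thinning. With the first selection the difference was 9.51 without p21mTert replicate 2 and 9.8 without p21Het replicate 1. The difference of p21mTert from p21mTertCD moved from 11.7 to 20.1 without p21mTert replicate 1, 6.22 without p21mTert replicate 2, 19.4 without p21mTertCD replicate 2 and 3.99 without p21mTertCD replicate 1. It was 0.617 with the wider AT2 selection and 1.47 after thinning, where the p21mTert mean was 1.07 and 1.13 times that of p21mTertCD, against 1.37 times with the first selection.

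**Figure D3:**
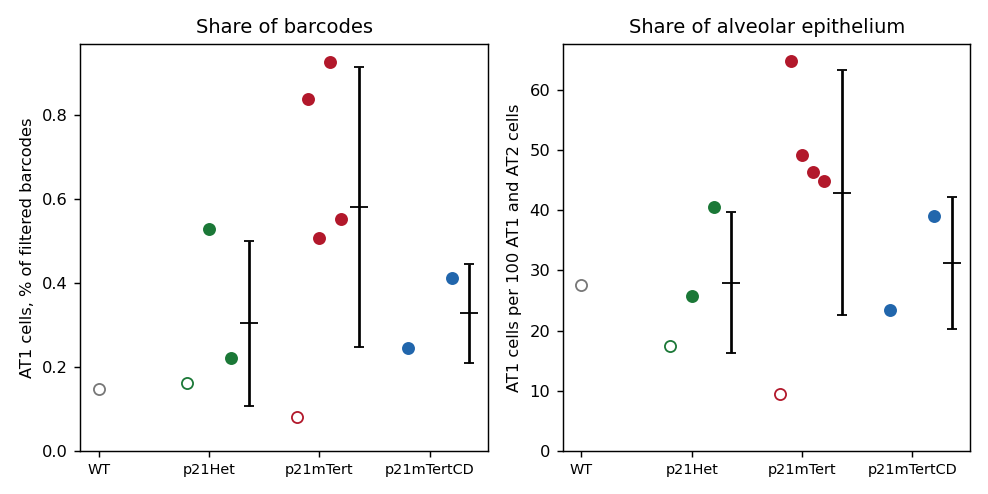
AT1 cells as percent of filtered barcodes (left) and per 100 AT1 and AT2 cells (right) by genotype, 1 point per library, with open circles for the earlier deposit and black bars for mean ± SD. On the right the 4 later p21mTert libraries (44.8 to 64.9) lie above the p21Het libraries (17.5 to 40.6), while the earlier p21mTert library lies at 9.43.

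Tert and Cdkn1a, the genes joined in the engineered allele, were too rarely captured in AT1 cells for a firm comparison. Tert had 4 UMIs in all, 1 in each of p21Het replicate 2, p21mTert replicates 2 and 4, and p21mTertCD replicate 1. Pooled over libraries this was 1.66 CPM in p21mTert (exact 95% interval 0.201 to 5.99) and 2.2 CPM in p21Het (0.0556 to 12.2). WT had no Tert UMI among 46688, which allows a level of up to 64.3 CPM (the 3-UMI limit for a count of 0, not the exact interval). A difference in Tert between genotypes was not detectable at this depth (log2 difference of 0.04 between p21mTert and p21Het with a pseudocount of 1 CPM, exact permutation p = 1).

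Cdkn1a stood at 44.9, 42.8 and 59.2 CPM in the p21Het libraries and 0, 37.4, 9.48, 79.9 and 48.7 in those of p21mTert. It stood at 240 and 16.4 in the p21mTertCD libraries and 21.4 in WT. The p21mTertCD and p21mTert values enclosed those of p21Het. The highest value came from 1 cell, which held 22 of the 25 UMIs in p21mTertCD replicate 1, and 1 cell of p21mTert replicate 4 held 11 of 32. The log2 difference of p21mTert from p21Het was -1.5 (exact permutation p = 0.464), and that from p21mTertCD was -1.89 (p = 0.429), with adjusted p = 0.96 for both over the 6 tests of these genes. Without p21mTert replicate 1, where 5 cells held no UMI of Cdkn1a and 1 UMI is worth 69.8 CPM, the first difference was -0.472. Pooled over libraries the level was 48.1 CPM in p21mTert and 46.2 in p21Het.

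Gene by gene differences within AT1 cells were tested on UMIs summed per library, over the 9 replicated libraries with at least 10 AT1 cells. WT, with 1 library, and p21mTert replicate 1, with 5 cells, were left out, so that p21Het had 3 libraries, p21mTert 4 and p21mTertCD 2. Of 3857 genes tested, none was called in any of the 3 contrasts (0%) by edgeR's quasi-likelihood test at a Benjamini-Hochberg adjusted p under 0.05, and DESeq2 called none either. At an unadjusted p under 0.05, 129 genes (3.34%) differed between p21mTert and p21Het, 178 (4.61%) between p21mTert and p21mTertCD and 162 (4.2%) between p21mTertCD and p21Het. The share of all genes whose libraries do not overlap between groups is not given. Where such an order is named for a gene below, it is a description. In data simulated for p21mTert against p21Het only, 83.3% of genes changed 4-fold were called and 1.61% of those changed 2-fold, so most 2-fold changes would have been missed. The simulation gave every gene the same spread between libraries (common dispersion 0.0923) and held no mixed cells. For genes that vary more between libraries, 4-fold changes would be missed more often than this.

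The AT1 genes that the selection did not use were compared between genotypes next. Hopx ran at 11600, 4690 and 8320 CPM in p21Het, 8440, 5630, 7520 and 5380 in the 4 tested p21mTert libraries and 4660 and 5280 in p21mTertCD, with 13300 in WT. The p21Het libraries overlapped both other genotypes, while both p21mTertCD libraries lay below the p21mTert libraries (edgeR log2 difference of p21mTert from p21mTertCD 0.44, SE 0.33, adjusted p = 0.978). Hopx levels without mixed cells are not given. The regulator list, which holds Hopx, then took 0.578% and 0.888% of UMIs in p21mTertCD and 0.804% to 1.12% in p21mTert, which overlapped. Between p21mTert and p21Het the log2 difference was -0.15 (SE 0.29, adjusted p = 1) for Hopx and 0.25 (SE 0.31, adjusted p = 1) for Aqp5. With 1 library left out Hopx ran from -0.33 (p21Het replicate 2) to 0.02 (p21Het replicate 1) and Aqp5 from 0.08 (p21mTert replicate 3) to 0.49 (p21Het replicate 3). Of the 24 further AT1 genes, 8 were higher and 16 lower in p21mTert than in p21Het, with a median log2 difference of -0.13 against 0.01 over all genes tested. In p21mTertCD against p21Het, 7 were higher and 17 lower (median -0.19, and 0 over all genes). In p21mTert against p21mTertCD, 15 were higher and 9 lower (median 0.06, and 0.03 over all genes). None passed an unadjusted edgeR p of 0.05 in any contrast.

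Ager and Rtkn2 were used by the selection, so their levels are a description with no test. Ager stood at 16900, 7320 and 13200 CPM in p21Het and at 11500, 9900, 12100 and 6810 in the 4 tested p21mTert libraries, with 10300 and 8180 in p21mTertCD. WT was at 17700 and the p21mTert library with 5 cells at 13300. Among the 3 altered genotypes the libraries overlapped, and the lowest p21Het and p21mTert libraries both held mixed cells. Without mixed cells the p21Het libraries were at 16900, 9640 and 13300 CPM, the 4 tested p21mTert libraries at 11700, 12800, 14500 and 11000, and the p21mTertCD libraries at 10900 and 12000.

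Igfbp2 ran at 3430, 1600 and 3510 CPM in p21Het, 3140, 3320, 3200 and 1620 in the 4 tested p21mTert libraries, 1670 and 2130 in p21mTertCD and 5500 in WT. Among tested libraries the 3 altered genotypes overlapped, and WT was above them (log2 difference of p21mTert from p21Het 0.11, SE 0.32). Vegfa ran at 3950, 2540 and 4980 CPM in p21Het, 3590, 3140, 3680 and 3050 in the tested p21mTert libraries, and 2700 and 2920 in p21mTertCD. p21mTert lay inside the p21Het range for Vegfa, with a log2 difference of -0.08 (SE 0.28).

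**Figure D4:**
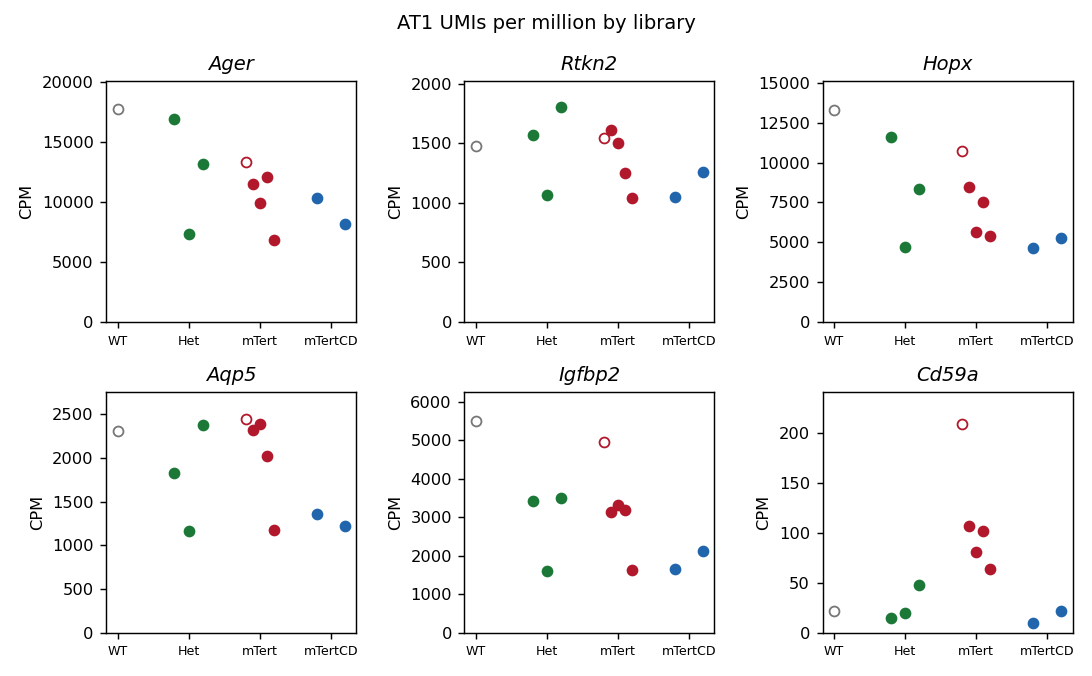
Levels in CPM of Ager, Rtkn2, Hopx, Aqp5, Igfbp2 and Cd59a in AT1 cells by genotype, 1 point per library, with open points for the WT library and p21mTert replicate 1, which have under 10 AT1 cells. For the 5 marker genes the p21Het libraries overlap those of both other altered genotypes, with WT the highest library for Ager, Hopx and Igfbp2, and Cd59a lies between 63.3 and 209 CPM in p21mTert and between 9.59 and 47.4 elsewhere.

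Cd59a had the smallest unadjusted p among the genes tested between p21mTert and p21Het. It encodes a membrane inhibitor of the terminal complement complex and lies on chromosome 2 (GRCm38, chr2:104095801-104115354, plus strand). In AT1 cells it stood at 21.4 CPM in WT, at 15, 19.8 and 47.4 in p21Het, at 209, 107, 80.6, 102 and 63.3 in p21mTert, and at 9.59 and 21.9 in p21mTertCD. All 5 p21mTert libraries were above all 6 others, including the p21mTert library outside the fit. In that library, at 209 CPM, 1 UMI is worth 69.8 CPM. The counts were small, with 1, 6 and 4 UMIs in p21Het, 40, 17, 41 and 13 in the 4 tested p21mTert libraries, and 1 and 4 in p21mTertCD. Without mixed cells the 5 p21mTert libraries ran from 90.1 to 209 CPM and the other 6 from 8.18 to 48.

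The log2 difference of Cd59a was 1.78 (SE 0.4) from p21Het and 2.33 (SE 0.5) from p21mTertCD, higher in 4 of 4 tested p21mTert libraries. edgeR gave unadjusted p = 0.000512 and 0.000371, but adjusted p = 1 and 0.444 over the 3857 genes, so neither was called. Only the p21mTert libraries, where Cd59a is high, held enough UMIs for it to pass the filter on low counts. These p-values are therefore not support for a difference. With no filter on low counts Cd59a was called against p21Het (1.85, adjusted p = 0.0245), as 1 of 45 genes among 14621 tested. Against p21mTertCD it was called as 1 of 36. The same edgeR setting gave Nupr1 an adjusted p of 6.73e-15 and Egr1 one of 4.83e-05 against p21Het. Without mixed cells Nupr1 was lost from the library that carried it and Egr1 fell in the tested p21mTert libraries, as given below. The 2 comparisons of Cd59a share the p21mTert libraries. Genes higher in p21mTert than p21Het at an unadjusted p under 0.05 were 1.87% of those tested. Cd59a was listed because it had been called in other cell types of these same libraries, so its direction here is not independent evidence.

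Cd59a was more abundant in AT1 cells than in other cells, at 65.7 CPM against 15.3 in AT2 cells and 8.3 in other filtered cells. Its AT2 level was 0, 13.2 and 0 CPM in the p21Het libraries and 29.6, 16.5, 14.9, 33.7 and 30.6 in those of p21mTert, with 4.86 and 0 for p21mTertCD and 30.8 for WT. All 5 p21mTert libraries were above the p21Het and p21mTertCD libraries there too, while WT was within their range. Cd59a came from a list of genes called earlier in AT2 or other cells of these libraries, so this order is not independent evidence. The fit of AT2 cells did not test Cd59a for lack of counts. The difference between p21mTert and p21Het was 0.26 (log2) larger in AT1 than in AT2 cells with an SE of 1.12, so a difference particular to AT1 cells was not shown.

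Of the other genes called elsewhere in these libraries, the unnamed gene model Gm47283 stood at 120, 16.5 and 23.7 CPM in p21Het and 53.4, 104, 87.4 and 136 in the tested p21mTert libraries. The groups overlapped through p21Het replicate 1, and edgeR gave a log2 difference of 1.32 (SE 0.57, adjusted p = 1), which was 2.16 without that library and 0.68 without p21Het replicate 2. Wdfy1, an endosomal adaptor of Toll-like receptors, had a log2 difference of 0.57 (SE 0.44) in AT1 cells and 0.69 (SE 0.57) in AT2 cells. Rell1 had too few counts for the fit, with 3, 12 and 3 UMIs in p21Het and 0, 5, 1, 2 and 1 in p21mTert. Its levels were 44.9, 39.5 and 35.5 CPM in p21Het, 0, 13.4, 4.74, 5 and 4.87 in p21mTert, 19.2 and 27.4 in p21mTertCD and 21.4 in WT. The 4 tested p21mTert libraries were below those of the other genotypes for Rell1, on these few UMIs and with no test, while the depth of p21mTert replicate 1 was too low to place it, and the gene was listed because it had been called in other cell types here. Camk2b had 2 UMIs in all AT1 cells, and Gm10600 and Ifi208 none.

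The gene lists were then read one by one for p21mTert against p21Het, as counts and medians beside the median of 0.01 over all genes. No list held a called gene in any contrast. Basement membrane genes leaned lower in p21mTert, with 12 of 14 tested genes lower and a median log2 difference of -0.26, and none at an unadjusted p under 0.05. Col4a2 ran at 913, 682 and 924 CPM in p21Het, 657, 616, 472 and 346 in the tested p21mTert libraries, and 1220 and 804 in p21mTertCD. All 4 tested p21mTert libraries were below the p21Het and p21mTertCD libraries, while the p21mTert library outside the fit, at 907, was not. edgeR gave Col4a2 a log2 difference of -0.59 (SE 0.3, adjusted p = 1) from p21Het and -0.91 (SE 0.33, adjusted p = 0.886) from p21mTertCD.

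Col4a1, whose protein joins that of Col4a2 in 1 collagen molecule, had differences of -0.21 (SE 0.28) and -0.71 (SE 0.31). It is named here after its values were seen. Against p21mTertCD, 11 of 14 basement membrane genes were lower in p21mTert with a median of -0.3, against 0.03 over all genes, and Col4a1 and Col4a2 were the 2 with an unadjusted p under 0.05, in the lower direction, as were 2.46% of all genes. p21mTertCD against p21Het was even, at 7 higher and 7 lower with a median of 0.02. Without mixed cells Col4a2 ran at 913, 919 and 936 CPM in p21Het, 671, 809, 560 and 574 in the tested p21mTert libraries, and 1300 and 1190 in p21mTertCD. These libraries did not overlap between groups, which is a description, as the share of all genes with such an order is not given.

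Signals to neighbours had 5 of 14 tested genes higher and 9 lower in p21mTert, with a median of -0.12. Tgfb2, a TGF-β ligand, stood at 165, 158 and 178 CPM in p21Het and at 131, 66.3, 135 and 77.9 in the tested p21mTert libraries. They did not overlap, but the p21mTert library with 5 cells was at 279 (edgeR log2 difference -0.66, SE 0.26, adjusted p = 1). Wnt3a, a Wnt ligand, stood at 105, 39.5 and 107 CPM in p21Het and at 50.7, 14.2, 40 and 24.3 in the tested p21mTert libraries, with 140 in the one outside the fit (-1, SE 0.46, adjusted p = 1). These were 2 of the 14 at an unadjusted p under 0.05 in the lower direction, which 1.48% of all genes showed. Of the 2 groups compared, only p21Het, where Wnt3a is high, reached the level of the filter on low counts in enough libraries. The p of Wnt3a is therefore not support.

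Junction genes were even, with 6 of 12 higher and 6 lower and a median of 0.03. Cldn7, a claudin of many epithelia, stood at 105, 109 and 59.2 CPM in p21Het, 140, 168, 185, 212 and 238 in p21mTert, 173 and 274 in p21mTertCD and 64.3 in WT. All p21mTert and p21mTertCD libraries were above all p21Het libraries and WT. The place of p21mTert replicate 1, at 140 CPM, is uncertain, since 1 UMI is worth 69.8 CPM in it. edgeR gave a log2 difference of 1.06 (SE 0.33, adjusted p = 1) for p21mTert and 1.24 (SE 0.38, adjusted p = 0.999) for p21mTertCD, both against p21Het. Without mixed cells the p21mTert libraries ran from 137 to 238 CPM and the p21Het libraries from 60 to 105.

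Transport and caveolae genes stayed near the median of all genes. In the transport list 4 of 9 were higher and 5 lower (median -0.13), with Scnn1a at -0.4 (SE 0.26). In the caveolae list 4 of 7 were higher and 3 lower (median 0.06). YAP and TEAD genes had 8 of 12 higher and 4 lower with a median of 0.1, with Dlc1 first by p at 0.3 (SE 0.27). The regulators had 4 of 6 higher (median 0.15) with Foxa2, a pioneer factor of endoderm, at 0.48 (SE 0.31), and the genes around RAGE had 2 of 6 higher (median -0.1). That last count and median include Ager (-0.19), which the selection used, so they are a description. With 1 library left out, Dlc1 ran from 0.09 (p21mTert replicate 2) to 0.53 (p21Het replicate 2), Foxa2 from 0.25 (p21Het replicate 3) to 0.89 (p21Het replicate 2) and Scnn1a from -0.54 (p21Het replicate 2) to -0.24 (p21Het replicate 3).

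Immediate early and heat shock genes had 9 of 13 higher and 4 lower in p21mTert with a median of 0.63. Egr1, an immediate early transcription factor, stood at 29.9, 85.6 and 11.8 CPM in p21Het and 64.1, 261, 492 and 48.7 in the tested p21mTert libraries (edgeR log2 difference 1.82, SE 0.78, adjusted p = 1). The difference was 1.11 without p21mTert replicate 4, 3.58 without p21Het replicate 2, 0.9 without the cells marked by Scrublet and 0.89 with a replicate block. Without mixed cells the tested p21mTert libraries were at 62.7, 24.9, 114 and 16.4, inside or near the p21Het range of 12 to 89.2. Zfp36, which destabilises inflammatory mRNAs, had a log2 difference of 1.35 (SE 0.61, adjusted p = 1). Its tested p21mTert libraries ran from 58.4 to 415 CPM and the p21Het libraries from 15 to 122. Without mixed cells these ranges were 31.1 to 173 and 15 to 80.3. The list's median was not computed without them.

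The transitional state list had 7 of 11 higher and 4 lower with a median of 0.1. Its first gene by p, the stress factor Nupr1, had a log2 difference of 3.34 (SE 1.53, adjusted p = 1), which came from p21mTert replicate 5 at 2770 CPM. Without that library the difference was -0.95, and without mixed cells Nupr1 was at 0 CPM in it. p53 targets had 5 of 7 tested genes higher and 2 lower (median 0.02), with the antiproliferative gene Btg2 at 0.81 (SE 0.4, adjusted p = 1), which was 0.52 without p21Het replicate 1. Cdkn1a in the same fit had -0.09 (SE 0.72).

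**Figure D5:**
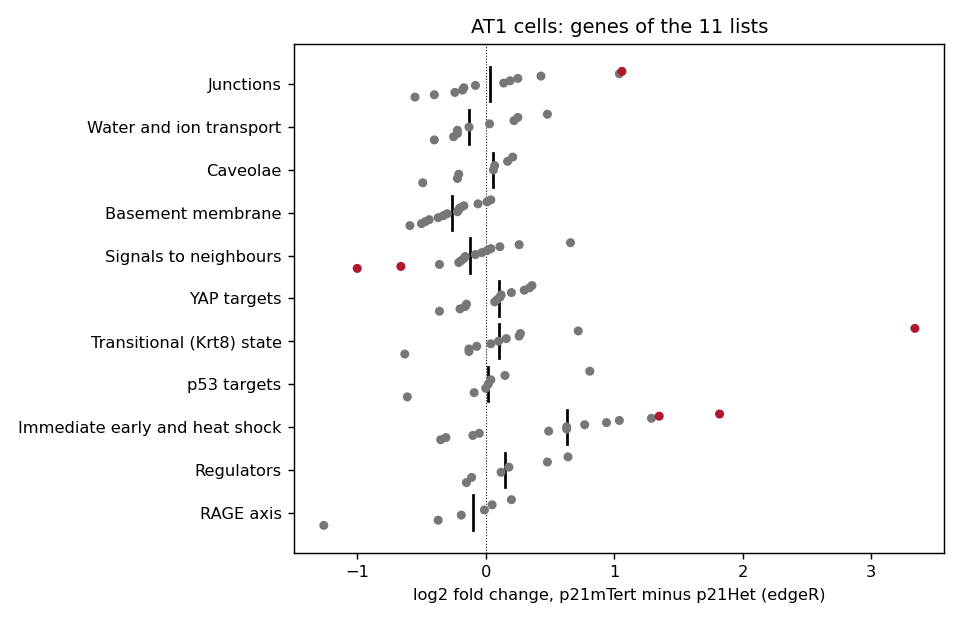
Log2 differences of p21mTert from p21Het within AT1 cells for the tested genes of the 11 pathway and state lists, without the cell type markers, 1 point per gene, with a bar at the list's median and red points at an unadjusted p under 0.05. Medians of these 11 lists lie between -0.26 for basement membrane and 0.63 for immediate early and heat shock genes, and no gene passed an adjusted p of 0.05. The list around RAGE includes Ager, which the selection used and whose point is a description.

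Markers of other cells also differed between the genotypes' AT1 libraries. Where levels without mixed cells are not given, their part in the differences above was not tested. Club genes took 0.202%, 12.8% and 0.233% of AT1 UMIs in p21Het, 0.488%, 0.26%, 9.14%, 3.02% and 10% in p21mTert, 2.32% and 8.97% in p21mTertCD and 0.141% in WT. Haemoglobins took 3.88% in p21Het replicate 2, 1.23% and 1.55% in p21mTert replicates 2 and 3, and at most 0.223% in each of the others. AT2 genes took 0.135%, 0.925% and 0.0841% in p21Het, 0.188%, 0.388%, 0.526%, 0.692% and 3.97% in p21mTert, 0.644% and 1.97% in p21mTertCD and 0.0428% in WT, with Sftpc at a log2 difference of 2.65 (SE 1.2, adjusted p = 1) between p21mTert and p21Het. Without mixed cells AT2 genes took at most 0.195% in any library. Of 5 tested ciliated cell genes all were higher in p21mTert than in p21Het (median log2 difference 3.13) and in p21mTertCD than in p21Het (median 4.44), and 4 were among the 4.2% of genes with an unadjusted p under 0.05 in the latter contrast. Their summed share was 0.0675% in p21mTert replicate 4 and 0.0651% in p21mTertCD replicate 2, and at most 0.00479% in each other library. Without mixed cells it was at most 0.00512% in any library. These genes could pass the filter on low counts only through p21mTert replicate 4 and p21mTertCD replicate 2, where they are high. Their p-values are therefore not support for a difference. The 4 haemoglobin genes were lower in p21mTert than in p21Het (median -1.04) and in p21mTertCD than in p21Het (median -5.83), and all 4 were among that 4.2% in the latter contrast. Without mixed cells the haemoglobin share in p21Het replicate 2 was 5.21%, while its club share was 0.0888%.

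The smallest p among all genes came from 2 further genes in the other contrasts, named after their values were seen. Kif1a, a kinesin motor of synaptic vesicle transport, stood at 16, 28.4, 15 and 4.87 CPM in the tested p21mTert libraries and 134 and 71.1 in p21mTertCD (log2 difference -2.59, SE 0.5, edgeR adjusted p = 0.435). Its counts were small, as 1 UMI is worth 2.5 to 4.87 CPM in these p21mTert libraries and 9.59 and 5.47 in p21mTertCD. Of these 2 groups, only p21mTertCD, where Kif1a is high, held enough UMIs for the filter on low counts, so its p is not support. Hes1, a Notch target, stood at 451 and 684 CPM in p21mTertCD and 150, 211 and 130 in p21Het (1.73, SE 0.37, adjusted p = 0.814). In both cases the groups did not overlap, although without mixed cells Hes1 in p21mTertCD replicate 2 was at 229 CPM.

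A last comparison asked which differences were larger or smaller in AT1 than in AT2 cells of the same libraries. AT2 cells alone gave no called gene among 2415 tested (0%), with 81 (3.35%) at an unadjusted p under 0.05 between p21mTert and p21Het. Of 4178 genes tested for a difference of differences between p21mTert and p21Het, 3 were called (0.0718%): Acta2 (-9.74, SE 1.04, edgeR adjusted p = 7.56e-05), Tagln (-10.89, SE 1.28, 0.000258) and Dcn (11.03, SE 1.43, 0.000488). Acta2 and Tagln are contractile genes of smooth muscle, and Dcn is a matrix gene of fibroblasts. None is an AT1 gene, and most AT1 UMIs of each came from 1 library, with 178 of 183 for Acta2 and 110 of 111 for Tagln in p21Het replicate 2 and 134 of 136 for Dcn in p21mTert replicate 4. The 1 mixed cell with fibroblast genes lay in p21mTert replicate 4. There the fibroblast list, which holds Dcn, took 0.0944% of AT1 UMIs, and 0.00186% without mixed cells. The 3 calls became 1 without p21Het replicate 2 or without p21mTert replicate 2, and 2 without p21Het replicate 1 or without p21mTert replicate 4. No gene was called in the contrasts of p21mTert with p21mTertCD or of p21mTertCD with p21Het (0% each). At an unadjusted p under 0.05 there were 133 genes (3.18%) in the first contrast and 146 (3.49%) and 155 (3.71%) in these.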

How the data were processed

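Per the labels' protocols, lungs were dissociated with dispase and collagenase, loaded as 10x single-cell 3′ libraries, and the reads processed with Cell Ranger against mm10. The labels and the file headers disagree on its version, and none is given. The deposited files hold raw UMI counts per barcode for 31053 genes, without the scran normalization and cell filters that the labels describe. Those filters (1000 to 30000 UMIs, at most 14% mitochondrial) were applied here. GENCODE M21 (GRCm38) held 30934 of the gene identifiers.

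The members and all lists were chosen with earlier results of these data known. Doublets were kept, except in an alternative that left out the cells with the highest Scrublet scores (scanpy 1.11.5) up to 0.8% per 1000 barcodes, which marked 23 AT1 cells. Scrublet's own thresholds marked 0% to 3.59% of cells by library. UMIs were summed per library over AT1 cells and tested with the quasi-likelihood test of edgeR 4.0.16 (TMM scaling, filterByExpr, R 4.3.3), with 1 dispersion estimate over the 3 groups. The AT1 and AT2 comparison added a term for library. Libraries needed at least 10 AT1 cells, which 9 of the 10 replicated libraries had. The planned design counted on all 10. Shares, Tert and Cdkn1a (log2 of CPM plus 1) were compared by 2-sided exact permutation tests over libraries. 1 UMI was worth 2.5 to 69.8 CPM by library, which sets the precision of low genes. The fit was tested on simulated data.

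Named genes were Tert, Cdkn1a, the markers and selection genes, the 15 with the highest fold seen in at least 25% of AT1 cells, up to 4 genes per list with the smallest p, and 8 genes called earlier in other cell types. Other names include list members given as examples of levels, such as Ctnnb1 and Hbegf, and not all of them are marked in the text. Some genes are not reported here. The motifs were chosen as textbook cores. The same replicate numbers in different genotypes are not said to mark shared animals or days, so they were not used as pairs in the main tests. Alternatives were other gates, filters, scalings and tools, a term for deposit, the later deposit alone, a block on the replicate numbers, thinning, and each library left out.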

Additional observations from a re-analysis of the deposited data

Results flagged for a closer look

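Among 28 values checked over the 5 p21mTert libraries, 5 had a library standing far from the other 4, where chance alone marks about 1 in 20. In p21mTert replicate 5, Nupr1 was highest at 2770 CPM and Sftpc, the surfactant protein C gene, highest at 31700 CPM, while Col4a4 was lowest at 725 CPM. This library held 5 mixed cells among 26, and without them Nupr1 was at 0 CPM. In p21mTert replicate 1, with 5 AT1 cells, Wdfy1 was lowest at 0 CPM and the neutrophil gene S100a9 highest at 209 CPM, which is 3 UMIs.

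The difference between p21mTert and p21Het differed between AT1 and AT2 cells for Dcn by 11.03, for Tagln by -10.89 and for Acta2 by -9.74 on the log2 scale. Most AT1 UMIs of each gene came from 1 library, and the calls also changed without other libraries, as given above.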

How the results depend on the processing

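Counting error limited low genes, with 1 UMI worth up to 69.8 CPM. Small differences in AT1 measures changed sign with the setting, and the cause was not tested. The AT1 share of p21mTertCD over p21Het (0.024 percentage points) was -0.0473 in the later deposit, -0.0166 and -0.00372 with at least 3 or 6 Ager and Rtkn2 UMIs, -0.00935 after thinning and -0.00289 without mixed cells, a choice made after seeing the data. Per 100 AT1 and AT2 cells this contrast was -1.91 in the later deposit. The Igfbp2 share of p21mTertCD over p21Het was 1.63 at 2000 UMIs, 2.38 without mixed cells and 0.374 with at least 6 Ager and Rtkn2 UMIs. Tert in p21mTert against p21Het was -0.13 in the later deposit and -0.00286 with a pseudocount of 5.

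The replicate numbers are not known to pair libraries, and only 2 are shared by the tested p21Het and p21mTert libraries. p21mTertCD shares only replicate number 2 with each of them, so its block results rest on 1 of its libraries. Its differences in shares, per 100, Tert and Cdkn1a under the block compare 1 library with 1. With a replicate block, p21mTertCD against p21Het was -0.117 for the share, 27.2 for Igfbp2, -2.1 for Tert and -1.33 for Cdkn1a. Per 100 AT1 and AT2 cells the block gave 23.9 (p21mTert over p21Het), 26 (p21mTert over p21mTertCD) and 13.3 (p21mTertCD over p21Het), and for p21mTert over p21mTertCD a share difference of 0.426 and an Igfbp2 difference of 5.45. Under the block, Tert was -0.113 for p21mTert against p21Het and 1.88 against p21mTertCD, and Cdkn1a was 1.14 against p21mTertCD. The block called 1 of 3691 genes between p21mTert and p21Het, Lcn2. No count is given for p21mTertCD, where 1 library of its group carries the block fit. For p21mTert against p21Het, Ager, Rtkn2, Hopx and Nupr1 had log2 differences of 0.1, 0.14, 0.12 and -1.12 under the block. Those of Ager and Rtkn2, here and below, are values with no test, since the selection used these genes.

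Without a filter on low counts, 14621 genes were tested within AT1 cells, against 3857 in the main fit. Of the 14621, 45 were called between p21mTert and p21Het, 36 between p21mTert and p21mTertCD and 34 between p21mTertCD and p21Het. For AT1 against AT2, 15, 2 and 10 genes were called in the same order of contrasts. Without this filter Rtkn2 was at 0.07 within AT1 cells. With at least 20 AT1 cells per library, which left p21Het replicate 2 and p21mTertCD replicate 2 alone in their groups (assumed to vary like p21mTert), 7 genes were called for p21mTert and 2 for p21mTertCD against p21Het, the latter comparing 1 library with 1. This fit tested 4956 genes. Ager, Rtkn2, Hopx and S100a9 were then at 0.21, 0.11, 0.27 and 1.64. Hopx was 0.03 with a term for deposit and 0.02 in the later deposit, and Rtkn2 0.01 with at least 6 UMIs. DESeq2, its size factors, and removal of the cells marked by Scrublet called no gene in any contrast.

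With each library left out in turn, 0 genes were called within AT1 cells in every refit, and 1 to 3 (p21mTert against p21Het) and 0 to 1 (p21mTert against p21mTertCD) for AT1 against AT2. The ranges were -0.0595 to 0.136 for the AT1 share of p21mTertCD over p21Het, 9.51 to 23.4 per 100 for p21mTert over p21Het and -4.43 to 11 per 100 for p21mTertCD over p21Het. The Igfbp2 share ran from -3.69 to 19.1 and from -16.1 to 6.75 against p21Het for p21mTert and p21mTertCD, and from 3.55 to 21.2 for p21mTert over p21mTertCD. Tert ran from -0.314 to 0.737 (p21mTert against p21Het), -2.67 to 0.737 (against p21mTertCD) and -0.701 to 2.7 (p21mTertCD against p21Het). Cdkn1a ran from -2.06 to -0.472 for p21mTert against p21Het, from -3.79 to 0.00308 for p21mTert against p21mTertCD and from -1.51 to 2.28 for p21mTertCD against p21Het, both ends of the last 2 ranges set by the 2 p21mTertCD libraries. For p21mTert against p21Het, Rtkn2 ran from -0.13 to 0.12, Hopx from -0.33 to 0.02, Cavin3 from -0.82 to 0.81 and Nupr1 from -0.95 to 10.44.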
